A study of Homo sapiens with 2 samples.

Results

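The cells described here are the 5% of non-dividing, albumin-low HepaRG cells with the highest expression of 9 target genes of NRF2, called NRF2-high cells below. A cell was eligible when it had at least 500 detected genes, at least 1000 unique molecular identifiers (UMIs, 1 per captured RNA molecule) and at most 25% mitochondrial UMIs, with ALB under 5 and TOP2A, MKI67 and CENPF together under 5 UMIs per 10000. Each eligible cell was given a score, the mean of ln(1 + UMIs per 10000) over NQO1, GCLM, TXNRD1, SRXN1, SLC7A11, AKR1B10, AKR1C1, AKR1C2 and OSGIN1, and the top 5% in each library were taken. This gave 200 NRF2-high cells out of 4017 eligible cells and 9348 cells that passed the quality limits (2.14% of the latter). They were compared with the 2008 eligible cells below the median score, called low-score cells.

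NRF2, encoded by NFE2L2, is the transcription factor of the oxidative and electrophile stress response. In unstressed cells KEAP1 holds it and hands it to a CUL3 ubiquitin ligase for degradation; when reactive compounds modify KEAP1, NRF2 accumulates, pairs with a small MAF protein and binds antioxidant response elements, from which BACH1 otherwise keeps it away. Its targets make glutathione, recycle thioredoxin, supply NADPH, reduce carbonyls and quinones, and store or export iron, and in liver they also take part in the conjugation and export of drugs.

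HepaRG is a human hepatic line whose progenitors differentiate into hepatocyte-like and biliary-like cells. Both libraries came from the vehicle arm of a study of stress-inducing chemicals: cells kept 7 days in culture and then given 0.1% DMSO for 24 h, with no chemical other than the vehicle, so both groups of cells share line, vehicle and time. They were dissociated in the presence of the transcription and translation blockers actinomycin D and anisomycin, fixed, and run by 10x Genomics 3′ single-cell RNA sequencing at a target of 10000 cells. The labels number the libraries as replicates 1 and 2 but give both the same biological replicate, so the p-values below cover variation between this pair of libraries alone, part or all of which may be technical.

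Replicate 1 held 85475317 UMIs over 4591 barcodes and replicate 2 held 57246647 UMIs over 4998 barcodes. The libraries contributed 98 of 1971 and 102 of 2046 eligible cells as NRF2-high, with 985 and 1023 low-score cells. They shared 10 barcodes, and none of these belonged to an NRF2-high cell. Levels below are CPM: the UMIs of a gene, summed over the cells of a group in 1 library, per 1000000 UMIs of that sum. Replicate 1 is given first.

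The score chose the cells, so the levels of its genes are a description and were not tested. Scores formed 1 continuous range: in replicate 1 the lowest NRF2-high cell scored 1.427 and the next cell outside 1.426, and in replicate 2 these were 1.380 and 1.378. Within 0.05 of that limit lay 22 NRF2-high cells and 27 cells outside in replicate 1, and 31 and 29 in replicate 2. The group is therefore the upper end of a range of scores. Scores alone cannot tell whether it is also a separate population, because membership near the limit depended on which UMIs were read.

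**Figure D1:**
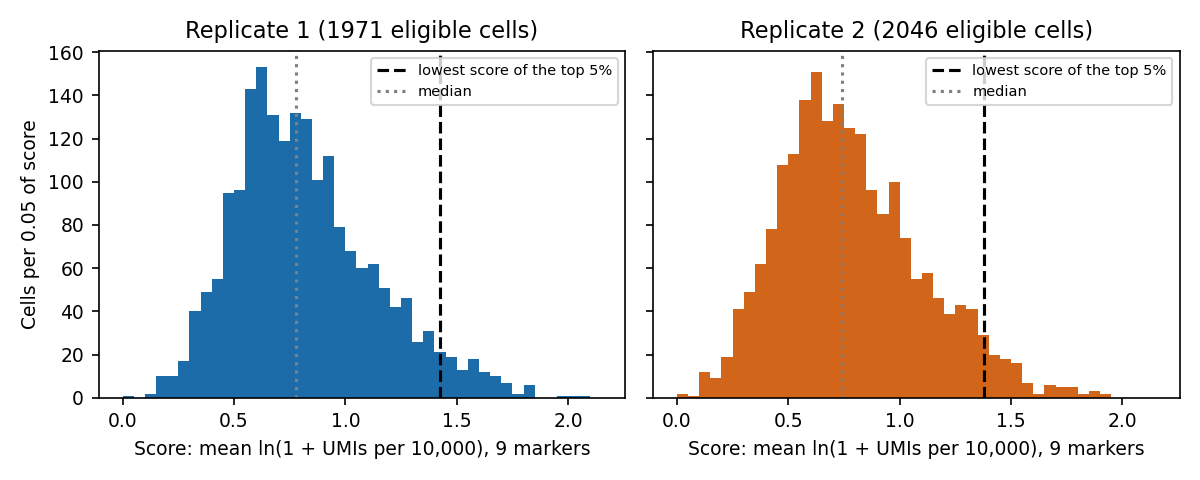
Number of eligible cells (vertical axis) by score (horizontal axis, mean ln(1 + UMIs per 10000) over the 9 genes) in replicate 1 (left) and replicate 2 (right). The dashed line is the lowest score of the top 5% (1.427 and 1.380) and the dotted line the median (0.780 and 0.742); no gap separates the top cells from the rest.

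The aldo-keto reductases, which reduce ketones and aldehydes, weighed most in the score. AKR1C2 had 1406 and 1119 CPM in the NRF2-high cells against 58.9 and 57.7 CPM in the low-score cells, and it made up 24.4% and 22.8% of the difference in score. AKR1C1 had 1164 and 969 CPM against 139 and 121 CPM, and AKR1B10 had 632 and 774 CPM against 31.3 and 28.5 CPM. These genes have close relatives (AKR1C1, AKR1C2 and AKR1C3; AKR1B10 and AKR1B15), and how reads shared between relatives were counted is not given in the sources used here.

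The other genes of the score were also higher in both libraries, by their choice. GCLM, the regulatory subunit of glutamate-cysteine ligase, had 874 and 819 CPM against 225 and 215 CPM. SLC7A11, the cystine importer, had 314 and 258 CPM against 42.0 and 39.2 CPM. TXNRD1, the cytosolic thioredoxin reductase, had 2228 and 2172 CPM against 1265 and 1220 CPM. SRXN1, which repairs over-oxidised peroxiredoxins, had 123 and 143 CPM against 25.5 and 23.2 CPM, and OSGIN1, a growth inhibitor induced by oxidative stress, 40.1 and 46.8 CPM against 6.32 and 6.00 CPM. NQO1, a quinone reductase often used as the standard NRF2 readout, was scarce: it had 20.4 and 29.3 CPM against 1.04 and 0.947 CPM, and 85 of 98 and 92 of 102 NRF2-high cells had no NQO1 UMI. It made up 1.26% and 1.15% of the difference in score.

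Each gene of the score was also measured in cells chosen by the other 8 genes, a value that its own level did not set. All 9 were then higher in both libraries, without a test. AKR1C2 was 13.6 and 9.51 times and AKR1B10 8.69 and 11.2 times its level in the low-score cells. For AKR1C1 and AKR1C2 the close relative stayed among the other 8 genes, so their values are uncertain to the extent that reads were shared. The cells were largely the same: without AKR1C2, 84 NRF2-high cells were chosen again in each library. GCLM was 3.04 and 2.68 times higher, SLC7A11 4.21 and 3.33 times and TXNRD1 1.55 and 1.52 times. The aldo-keto reductases varied together most closely across eligible cells, with a Spearman correlation of 0.60 and 0.53 between AKR1C1 and AKR1C2, while that of GCLM with TXNRD1 was 0.31 and 0.28. These correlations are across cells of 1 library, share each cell's depth and are given as a description.

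Promoters of genes that were high together were read for the letters of the antioxidant response element, TGACNNNGC, on both strands. The sequences below show the matches in 2 genes of the score and in 3 other genes that were higher in the NRF2-high cells. They are 29 bases of the gene's strand from RefSeq GRCh38.p14, 5′ to 3′, with the match or its reverse complement in capitals. Each start is a RefSeq start and can lie inside the annotated gene, as for SLC3A2, PGD and EPHX1.
GCLM (chr1:93909446-93909474, minus strand, 34 bases before the start): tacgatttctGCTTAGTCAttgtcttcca
TXNRD1 (chr12:104215670-104215698, plus strand, 99 bases before a start): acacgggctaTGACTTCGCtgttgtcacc
SLC3A2 (chr11:62881652-62881680, plus strand, 37 bases before the start): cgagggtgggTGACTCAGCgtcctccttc
PGD (chr1:10398853-10398881, plus strand, 201 bases before the start): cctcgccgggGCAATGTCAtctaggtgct
EPHX1 (chr1:225825266-225825294, plus strand, 78 bases before a start): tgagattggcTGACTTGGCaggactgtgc

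The windows ran from 250 bases before to 50 bases after each start. The letters were found for 2 of 7 score genes with a window (28.6%), and for 9 of 30 other NRF2-related genes that were called higher (30%). Among genes called higher by at least 1.5-fold, 54 of 232 held them (23.3%), among genes called lower by as much, 43 of 263 (16.3%), and among all tested genes 2057 of 10606 (19.4%). The longer form TGACTCAGC, which contains the AP-1 site TGACTCA and is carried by SLC3A2 above, occurred in 2 of the 30 NRF2-related genes (6.67%) and in 65 of the 10606 tested genes (0.613%). A match is a description of the letters in this window and shows neither binding nor its absence elsewhere.

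The NRF2-high cells were somewhat deeper than the low-score cells. Their median was 16814 and 9582 UMIs per cell against 14980 and 8828, their median gene count 5158 and 3762.5 against 4953 and 3598, and their median mitochondrial share 9.31% and 9.78% against 8.59% and 8.88%. Across eligible cells the score had a Spearman correlation of 0.172 and 0.196 with the UMI count. When low-score cells were drawn to match the NRF2-high cells in UMIs, 521 genes were called higher and 569 lower, against 592 and 691 without matching.

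The label of resting cells rests on 3 genes, and other cell cycle genes were read beside it. The summed level of 20 S-phase genes was 1036 and 1004 CPM in the NRF2-high cells against 1136 and 1177 CPM in the low-score cells, and that of 12 other G2 and mitosis genes 193 and 159 CPM against 160.1 and 192 CPM. In the edgeR test, 1 of the 20 S-phase genes was called, MCM7, a subunit of the replicative helicase, which fell (log2 fold change -0.61, SE 0.17, adjusted p = 0.00516), and 0 of the 10 tested mitotic genes were. Over all tested genes 4.67% were called lower, so 1 call among 20 genes is near the general share. MCM7 was not called by DESeq2, and its direction reversed when AKR1B10, AKR1C1 and AKR1C2 were left out of the score. At an unadjusted p below 0.05, 0 S-phase genes were higher and 5 lower, and 1 mitotic gene was higher and 0 lower (0 by DESeq2 with adjustment). At that limit, 1421 of all 14785 genes were higher and 1511 lower in an edgeR fit without the library as a block. Over the cells, the median summed level of the S-phase genes was 6.99 and 6.15 UMIs per 10000 against 6.46 and 7.18.

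Genes outside the score were tested on the 4 sums of raw counts (NRF2-high and low-score cells in each library) with edgeR's quasi-likelihood test, with the library as a block and Benjamini-Hochberg adjustment over 14785 genes. At an adjusted p below 0.05, 592 genes were called higher in the NRF2-high cells (4% of the genes tested) and 691 lower (4.67%). Of these, 326 higher (2.2%) and 441 lower (2.98%) differed by at least 1.5-fold. The fit has 1 residual degree of freedom and takes most of its error from the other genes, so the very small p-values rank genes and are no measure of spread between cultures. DESeq2 on the same sums called 129 genes higher and 103 lower, all of them among the edgeR calls.

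Antioxidant genes outside the score rose widely in the same cells. Of 70 NRF2-related genes in 6 lists, 64 had enough counts to be tested. Of these, 40 were called higher by edgeR and 0 lower, against 4% higher over all genes tested. At an unadjusted p below 0.05, 43 were higher and 1 lower. At that limit, 1421 of all 14785 genes were higher and 1511 lower in the edgeR fit without the replicate block. DESeq2 on the same sums called 28 NRF2-related genes higher and 0 lower. The median log2 fold change of the 64 genes was 0.48, beside -0.00 over all tested genes. The called genes ranged from 0.26 to 2.70 on the log2 scale; 28 reached 1.5-fold and 11 reached 2-fold. GPX2, GSTP1, GSTM3, ME1, AKR1C4 and AKR1B15 were too scarce to test. These lists were chosen with earlier results of these data known, so their count describes the cells and is not independent evidence.

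**Figure D2:**
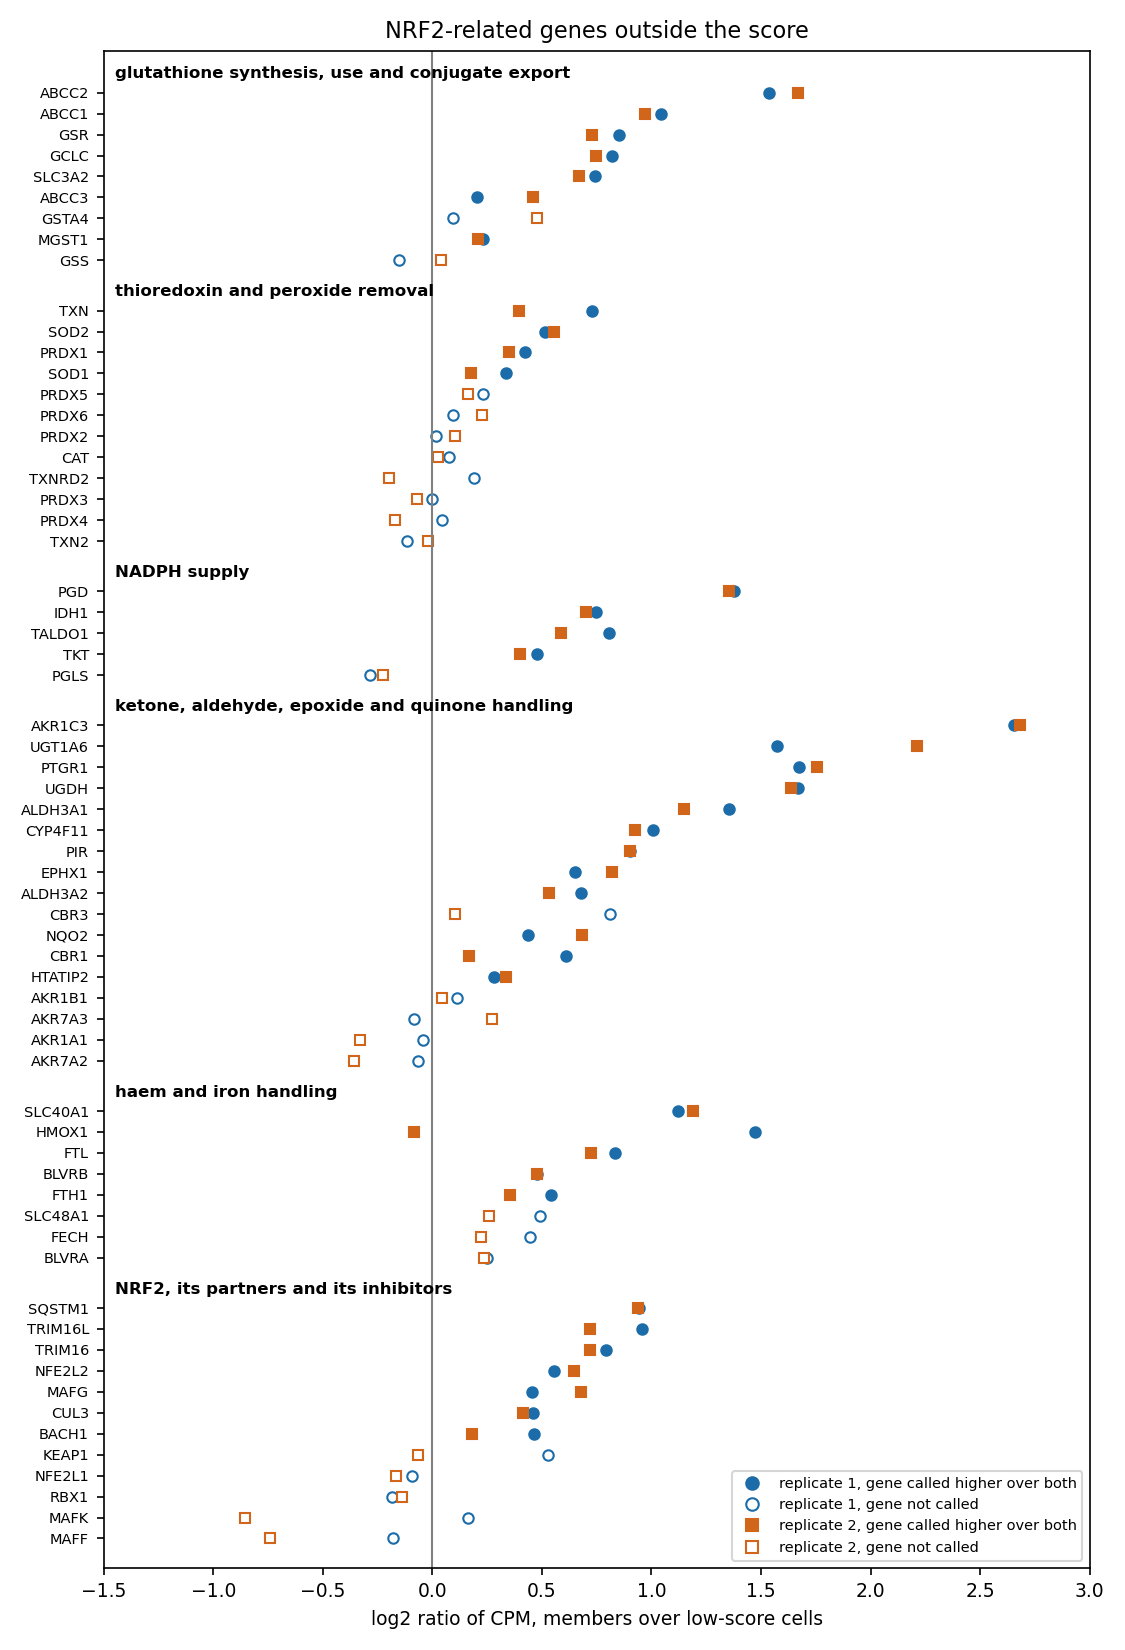
Log2 ratio of CPM in NRF2-high over low-score cells (horizontal axis) for the tested NRF2-related genes outside the score except 1, in replicate 1 (circles) and replicate 2 (squares); filled symbols mark genes called higher over both libraries by edgeR. HMOX1 is the called gene whose value lay below 0 in replicate 2, and AKR1C3 lies farthest to the right.

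Of 9 tested glutathione genes 7 were called higher, with a median log2 fold change of 0.75. GCLC, the catalytic subunit that pairs with GCLM to make the glutathione precursor, had 254 and 223 CPM in the NRF2-high cells against 144 and 133 CPM in the low-score cells (log2 fold change 0.83, SE 0.094, adjusted p = 2.24e-16). GSR, which regenerates reduced glutathione, had 208 and 184 CPM against 115 and 111 CPM (log2 fold change 0.83, SE 0.098, adjusted p = 3.65e-15). SLC3A2, the heavy chain that carries SLC7A11 to the cell surface, had 152 and 154 CPM against 90.9 and 96.8 CPM (log2 fold change 0.75, SE 0.11, adjusted p = 1.41e-10). In each of the 3 genes both NRF2-high values lay above both low-score values.

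Pumps that export glutathione conjugates and other conjugates rose with them. ABCC2, the pump of the bile canaliculus, had 247 and 263 CPM against 85 and 82.8 CPM (log2 fold change 1.64, SE 0.096, adjusted p = 3.90e-61), the largest change in this list. ABCC1, a pump of broad tissue distribution, had 168 and 149 CPM against 81.7 and 76.2 CPM (log2 fold change 1.05, SE 0.11, adjusted p = 4.11e-20). ABCC3, the basolateral pump, rose less, by 0.36 on the log2 scale (SE 0.078), as did MGST1, a membrane-bound glutathione transferase, by 0.26 (SE 0.077). GSS, which completes glutathione, was not called (40.7 and 42.9 CPM against 45.3 and 41.8 CPM, adjusted p = 0.956), nor was the transferase GSTA4 (adjusted p = 0.8).

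Of 6 tested genes of NADPH supply and the pentose phosphate pathway 5 were called higher, with a median log2 fold change of 0.67. PGD, a dehydrogenase of the pentose phosphate pathway, had 225 and 209.7 CPM in the NRF2-high cells against 86.6 and 81.9 CPM in the low-score cells (log2 fold change 1.41, SE 0.099, adjusted p = 1.50e-42). TALDO1 and TKT, which return pentoses to glycolysis, changed less. TALDO1 had 387 and 374 CPM against 221 and 249 CPM (log2 fold change 0.74) and TKT 1527 and 1441 CPM against 1098 and 1091 CPM (0.48). IDH1, the cytosolic isocitrate dehydrogenase, rose by 0.77. PGLS, the lactonase of the same pathway, was not called and had 111 and 117 CPM against 135 and 137 CPM.

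The thioredoxin and peroxide list was mixed, with 4 of 12 called higher and a median log2 fold change of 0.15. TXN, the cytosolic thioredoxin that TXNRD1 reduces, had 2703 and 2270.3 CPM against 1629 and 1725 CPM (log2 fold change 0.61, SE 0.068, adjusted p = 1.65e-16). PRDX1, a cytosolic peroxiredoxin, rose by 0.42 (SE 0.071), and the superoxide dismutases SOD1 and SOD2 by 0.30 and 0.57. The mitochondrial partners TXN2, TXNRD2 and PRDX3 were not called, with log2 fold changes of -0.03, 0.08 and 0.01, and neither was catalase (CAT, 0.09). Whether the cytosolic and mitochondrial genes differed in response was not tested.

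Enzymes for ketones, aldehydes, epoxides and quinones held the largest changes, with 12 of 17 called higher and a median log2 fold change of 0.65. AKR1C3, a ketosteroid and prostaglandin reductase, had 879 and 939 CPM in the NRF2-high cells against 139.8 and 147 CPM in the low-score cells (log2 fold change 2.70, SE 0.08, adjusted p = 1.51e-236); it is a close relative of 2 genes of the score, so its value is uncertain to the extent that reads were shared. PTGR1, which reduces unsaturated aldehydes and prostaglandin metabolites, had 1762 and 1911 CPM against 553 and 567 CPM (log2 fold change 1.75, SE 0.072, adjusted p = 1.56e-125). UGDH, which makes the UDP-glucuronic acid used in glucuronidation, had 394 and 413 CPM against 124 and 133 CPM (log2 fold change 1.69, SE 0.087, adjusted p = 3.89e-80). The smallest ratio between the groups of 1 library among these 3 genes was 3.11, for UGDH in replicate 2.

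Aldehyde and epoxide enzymes followed. ALDH3A1, an aldehyde dehydrogenase that the aryl hydrocarbon receptor also controls, had 177 and 161 CPM against 69.1 and 72.7 CPM (log2 fold change 1.30, SE 0.11, adjusted p = 4.69e-31). Its relative ALDH3A2, which oxidises fatty aldehydes, had 246 and 223 CPM against 154 and 155 CPM (log2 fold change 0.65). EPHX1, the microsomal epoxide hydrolase, had 181 and 193 CPM against 115 and 109 CPM (0.77). The redox-sensitive cofactor gene PIR rose by 0.94, the fatty acid hydroxylase gene CYP4F11 by 1.01, the quinone reductase gene NQO2 by 0.59, the carbonyl reductase gene CBR1 by 0.46 and HTATIP2 by 0.34. UGT1A6, a glucuronosyltransferase whose 3′ exons are shared by the whole UGT1A family, rose by 1.83 at 13.2 and 11.7 CPM against 4.43 and 2.52 CPM. Not called were CBR3, AKR1B1, AKR1A1, AKR7A2 and AKR7A3, between -0.15 and 0.60.

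Genes of iron and haem rose in 5 of 8 tested cases, with a median log2 fold change of 0.50. FTL, the ferritin light chain, had 20623 and 20273 CPM in the NRF2-high cells against 11568 and 12269 CPM in the low-score cells (log2 fold change 0.82, SE 0.065, adjusted p = 1.01e-33). FTH1, the heavy chain that oxidises iron for storage, had 17524 and 16148 CPM against 12031 and 12646 CPM (log2 fold change 0.49, SE 0.065, adjusted p = 6.21e-12). SLC40A1, the iron exporter ferroportin, had 39.5 and 44.9 CPM against 18.2 and 19.7 CPM (log2 fold change 1.19), and BLVRB, a biliverdin and flavin reductase, rose by 0.52. Of the iron uptake genes, the transferrin receptor TFRC rose by 0.35 (adjusted p = 0.0301) and ACO1, the iron-sensing aconitase, fell (-0.34, adjusted p = 0.0445).

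HMOX1, the inducible haem oxygenase, was called (log2 fold change 1.10, SE 0.23), but its 2 libraries disagreed. It had 41.9 CPM in the NRF2-high cells of replicate 1 against 15.1 CPM in the low-score cells, and 10.7 against 11.4 CPM in replicate 2. In replicate 1, 1 cell held 33 of its 70 UMIs (47.1%), and without that cell the level was 22.4 CPM. DESeq2 did not call HMOX1.

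The RNAs of NRF2 itself and of proteins that control it rose modestly, with 7 of 12 called higher and a median log2 fold change of 0.43. NFE2L2 had 150.3 and 171 CPM in the NRF2-high cells against 102 and 109 CPM in the low-score cells (log2 fold change 0.64, SE 0.10, adjusted p = 5.22e-08). SQSTM1, the autophagy receptor that draws KEAP1 away from NRF2 and is an NRF2 target itself, had 759 and 767 CPM against 395 and 400.2 CPM (log2 fold change 0.98, SE 0.076, adjusted p = 5.54e-35). MAFG, a small MAF partner, had 57.5 and 66.3 CPM against 41.9 and 41.4 CPM (0.59), and BACH1, the competing repressor, 123 and 97.5 CPM against 89.5 and 86.1 CPM (0.39). CUL3, the ligase scaffold, rose by 0.48. TRIM16, a ubiquitin ligase that acts on the KEAP1 and NRF2 pathway, and its near copy TRIM16L, with which reads may be shared, rose by 0.80 and 0.90. KEAP1 was not called: it had 46.1 and 31.2 CPM against 31.9 and 32.6 CPM (log2 fold change 0.35, adjusted p = 0.249), higher in replicate 1 and not in replicate 2. MAFF, MAFK, NFE2L1 and RBX1 were not called either. DESeq2 did not call CUL3, MAFG, BACH1 or TRIM16.

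The genes with the largest rise outside these lists were membrane transporters, a secreted phosphoprotein and non-coding RNAs. SLCO2B1, an uptake transporter of organic anions (GRCh38 chr11:75100563-75206549), had 28.7 and 30.2 CPM against 0.456 and 0.631 CPM (log2 fold change 5.79, SE 0.40, adjusted p = 2.22e-43). In replicate 2, 1 cell held 12 of its 31 UMIs (38.7%), and without it the level was 18.8 CPM. SLC47A2, an exporter of organic cations (chr17:19678288-19718979), had 70.7 and 79 CPM against 9.06 and 6.10 CPM (log2 fold change 3.29, SE 0.19, adjusted p = 4.50e-64), with no more than 7.63% of its UMIs in 1 cell. It also led a cluster of eligible cells, described below as cluster 3, that held 35% of the NRF2-high and 2.44% of the low-score cells. Within that cluster SLC47A2 had 193 and 176 CPM against 129 and 34.9 CPM. Within cluster 1 it had 19.3 and 26.7 CPM against 2.59 and 2.57 CPM, from 8 and 6 UMIs in the NRF2-high cells. Within cluster 2 it had 4.60 and 8.0 CPM against 1.38 and 7.81 CPM, from 3 and 2 UMIs in the NRF2-high cells. SPP1, the secreted phosphoprotein osteopontin, had 94 and 89.7 CPM against 6.45 and 3.05 CPM (log2 fold change 4.25, SE 0.19, adjusted p = 2.27e-104), but 1 cell in each library held 67.5% and 47.8% of its UMIs. Without those cells SPP1 stood at 31.0 and 47.9 CPM.

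Lipid and amino acid enzymes were among the same 15 genes. CYP4F3, a hydroxylase of leukotriene B4 and fatty acids, had 77.2 and 104 CPM against 9.13 and 10.4 CPM (log2 fold change 3.23, SE 0.17, adjusted p = 2.61e-77); CYP4F11 is a close relative. KYNU, the kynureninase of tryptophan breakdown, had 129.9 and 128 CPM against 42.2 and 36.9 CPM (log2 fold change 1.73, SE 0.12, adjusted p = 1.64e-41). Surface and secreted proteins followed: TSPAN7, a tetraspanin, with 73.6 and 69.2 CPM against 17.3 and 17.3 CPM, ADAM23, a disintegrin, with 47.3 and 50.7 CPM against 11.5 and 13 CPM, and EGF, the growth factor, with 15 and 16.6 CPM against 4.76 and 4.63 CPM. The log2 fold changes of these 3 genes were 2.09, 2.04 and 1.77. F2RL2, a thrombin receptor subtype, rose by 2.04 at 21.6 and 10.7 CPM against 5.09 and 3.05 CPM.

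Among the non-coding genes, LUCAT1, known as a smoke-induced RNA of airway cells (chr5:91054834-91314547), had 18 and 27.3 CPM against 3.00 and 1.79 CPM (log2 fold change 3.16, SE 0.34, adjusted p = 3.06e-18). LINC01508 had 44.9 and 40.0 CPM against 3.91 and 3.79 CPM (log2 fold change 3.51), and AC012501.2, which overlaps RPRM on the same strand, 237 and 194 CPM against 55.3 and 57.7 CPM (1.98). AL033397.1 rose by 2.75, but it overlaps GCLC on the same strand and its reads cannot be told from those of GCLC. AKR1C3 and PTGR1 complete the 15.

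Genes outside the score were also ranked by how closely they followed it across all eligible cells. Of 9697 genes ranked by Spearman correlation with the score, the mean of both libraries was highest for AKR1C3 (0.60), PTGR1 (0.53), FTL (0.42) and UGDH (0.39). CES1, the liver carboxylesterase that hydrolyses drugs and esters, came next at 0.35 and had 762 and 902 CPM against 295 and 271 CPM (log2 fold change 1.58, SE 0.077, adjusted p = 2.06e-89). ASPH, an aspartyl hydroxylase of the endoplasmic reticulum, ABCC2, FTH1, SLC47A2 and NAMPT, which recycles nicotinamide to NAD, had correlations from 0.34 down to 0.30. NAMPT had 538 and 605 CPM against 240.2 and 239.5 CPM (log2 fold change 1.28). The points are 1971 and 2046 cells that share a library and differ in depth, so these correlations are descriptions.

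Many of these genes were higher already in cells of middle score. Cells were placed in 5 bins of score rank: the low-score cells, 50 to 75%, 75 to 90%, 90 to 95% and the top 5%. AKR1C3 had 139.8, 286, 462, 592 and 879 CPM over the bins in replicate 1 and 147, 304, 439, 662 and 939 CPM in replicate 2. PTGR1 had 553, 767, 1058, 1279 and 1762 CPM, then 567, 785, 1116, 1544 and 1911 CPM. Of the 40 called NRF2-related genes, 25 rose at all 4 steps in replicate 1, 17 in replicate 2 and 14 in both, among them ABCC1, ABCC2, TXN, PGD, TKT, TALDO1, UGDH, FTL, BLVRB, NFE2L2, MAFG and SQSTM1. These genes were called on the first and last bins, so a rise from end to end was largely set by that choice. The same count over other genes is not given here. SPP1 differed in shape: it had 6.45, 10.8, 17.7, 10.6 and 94 CPM in replicate 1 and 3.05, 10.1, 25.7, 19.2 and 89.7 CPM in replicate 2, with a step up in the last bin, where 1 cell held 67.5% of its UMIs in replicate 1.

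**Figure D3:**
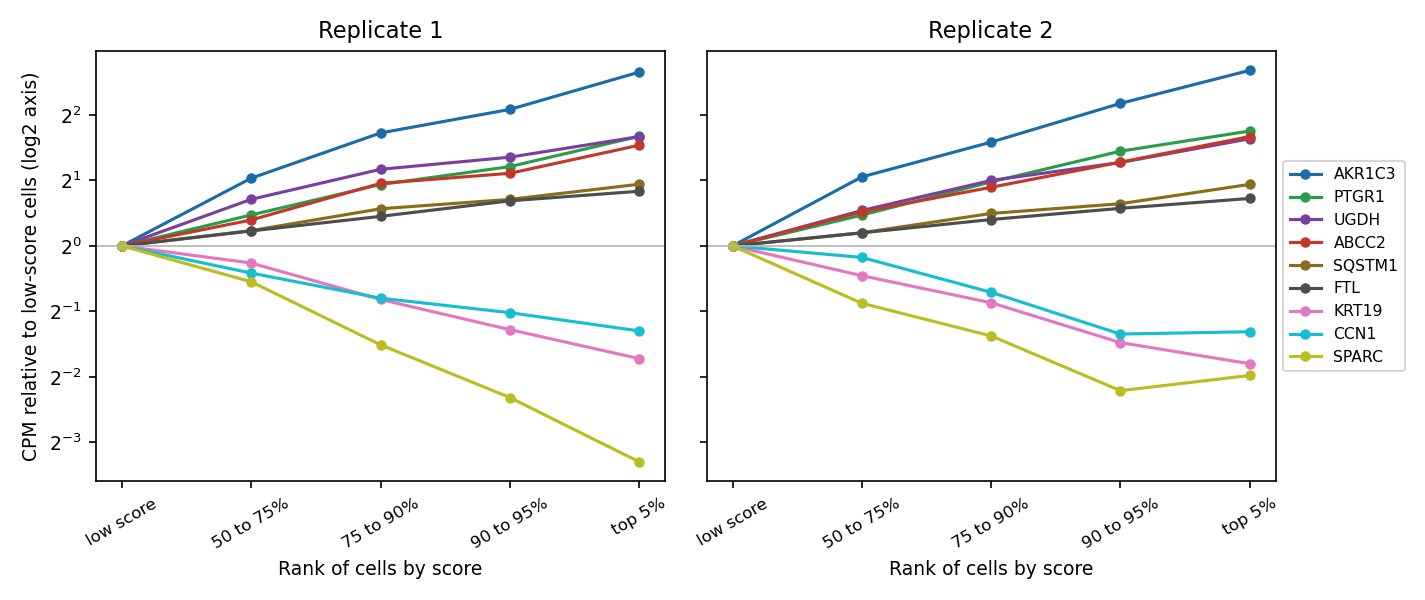
CPM relative to the low-score cells (vertical axis, log2 scale) over 5 bins of score rank (horizontal axis) in replicate 1 (left) and replicate 2 (right); each line is 1 gene outside the score. AKR1C3, PTGR1, UGDH, ABCC2, SQSTM1 and FTL climb from bin to bin, and KRT19 falls at each step; SPARC and CCN1 fall along the range but not at the last step of replicate 2.

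Actin and adhesion genes fell in the NRF2-high cells, with 16 of 19 tested called lower, none higher, and a median log2 fold change of -0.47, against 4.67% lower over all genes tested. CCN2 and CCN1, matricellular proteins and targets of the YAP and SRF programmes, led the list. CCN1 had 102 and 98.5 CPM in the NRF2-high cells against 252 and 244 CPM in the low-score cells (log2 fold change -1.26, SE 0.11, adjusted p = 3.85e-30). CCN2 had 18.6 and 28.3 CPM against 63.2 and 60.9 CPM (log2 fold change -1.43, SE 0.18, adjusted p = 4.98e-13), and the focal adhesion protein ZYX 58.7 and 53.6 CPM against 114 and 106 CPM (log2 fold change -0.93, SE 0.13, adjusted p = 1.90e-10). The other called genes include actins (ACTB, -0.35; ACTG1, -0.64), tropomyosins (TPM1, -0.91; TPM4, -0.67) and the integrin subunit ITGB1 (-0.47). When AKR1B10, AKR1C1 and AKR1C2 were left out of the score, 3 of these 19 genes were called lower, while 29 of 64 NRF2-related genes were called higher.

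Some keratins and biliary or progenitor markers fell as well. KRT19, the keratin of bile ducts and progenitors, had 305 and 315 CPM in the NRF2-high cells against 1006 and 1096 CPM in the low-score cells (log2 fold change -1.72, SE 0.082, adjusted p = 2.16e-93). CD24, a surface protein of progenitor cells, had 107 and 135 CPM against 252 and 239.7 CPM (log2 fold change -1.02, SE 0.10, adjusted p = 8.90e-21). The epithelial keratins KRT8 and KRT18 fell by 0.64 and 0.42 on the log2 scale. They were 2 of 3 genes called lower, with KRT81, among 8 tested epithelial keratin and junction genes, of which 0 were called higher; DESeq2 called KRT8 and not KRT18 or KRT81. Of 7 tested biliary and progenitor markers, 3 were called lower and 1 higher, the latter being SPP1, of which 1 cell in each library held 67.5% and 47.8% of the UMIs. Their summed level was 580 and 630.0 CPM in the NRF2-high cells and 1368 and 1445 CPM in the low-score cells, and the median over cells was 4.43 and 4.77 against 10.5 and 10.3 UMIs per 10000.

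Mesenchymal markers fell, and some were nearly absent from the NRF2-high cells. Their summed level was 113 and 145 CPM in the NRF2-high cells and 391 and 389 CPM in the low-score cells. COL3A1, a fibrillar collagen, had 2 UMIs over both libraries against 1228 in the low-score cells, a level 66.6 times lower (95% counting interval 18.4 to 551). Both COL3A1 UMIs came from 1 cell of replicate 1. PDGFRB, a receptor of pericytes and stellate cells, had 1 UMI against 413, 44.8 times lower (8.0 to 1774). These 2 intervals treat UMIs as independent and do not cover the spread between cells or libraries. SPARC, a matrix glycoprotein, had 8.38 and 21.5 CPM against 82.3 and 84.5 CPM (log2 fold change -2.58, SE 0.20, adjusted p = 2.20e-36). Of 9 tested mesenchymal markers 6 were called lower, with a median log2 fold change of -1.23; the defining markers COL1A2, PDGFRA and THY1 had 0 UMIs in the NRF2-high cells of both libraries and did not pass the filter on low counts. COL1A2 was also at 0 in the low-score cells of replicate 1 and THY1 in those of replicate 2. In sums over cells, fewer cells of a type and less RNA per cell cannot be told apart.

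The low-score cells held many more cells with such markers. Cells with at least 2 UMIs per 10000 from COL3A1, PDGFRB, SPARC, LUM and DCN together, a limit chosen after seeing the data, made up 47.5% and 44.1% of low-score cells, and 8 of 98 (8.16%) and 14 of 102 (13.7%) of the NRF2-high cells. With all such cells removed, 548 genes were called higher and 535 lower, and 40 of 63 NRF2-related genes were still called higher. Mesenchymal calls were 3 of 7 tested genes in that comparison. The genes that chose the removed cells belong to this list, so fewer mesenchymal calls were set by the removal itself. Of 19 tested actin and adhesion genes, 15 were still called lower without the removed cells, against 16 with all cells. How much of the fall of each gene came from this difference in cells was not tested.

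Calcium and potassium channel genes and non-coding RNAs were among the 15 genes with the largest fall. A2M, a secreted protease inhibitor, had 0 and 5.85 CPM against 28.4 and 29 CPM, CACNA1C, a calcium channel subunit, 5.99 and 5.85 CPM against 40.5 and 36.1 CPM, and NCALD, a neuronal calcium sensor, 2.39 and 3.90 CPM against 23.8 and 22.1 CPM. The potassium channel gene KCND2 fell (-2.50), as did TRIM55, a muscle ubiquitin ligase (-2.50). The other 8 of the 15 were the non-coding genes AC068633.1, PTCHD1-AS, AC021723.2, AC044810.2, AC097528.1, LINC02645, LINC02505 and AC007846.1, between -2.51 and -3.42. AC021723.2, AC097528.1, AC068633.1, PTCHD1-AS and COL3A1 were also leading genes of the cluster that held the most low-score cells.

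To place the NRF2-high cells among other cells, the eligible cells of both libraries were clustered without the listed genes, mitochondrial genes and ribosomal protein genes, which gave 5 clusters. Cluster 3, led by SLC47A2, MDGA2, NQO1, IL1R2 and PTPN13, was richest: 70 of 478 cells were NRF2-high (14.6%, exact Clopper-Pearson interval 11.6 to 18.1%). Cluster 2, led by CXCL13 and the acute-phase genes LBP, SERPINA3 and HP, had 66 of 833 (7.92%, 6.18 to 9.97%). Cluster 1, led by DLGAP1 and THBS1, had 45 of 1106 (4.07%, 2.98 to 5.41%), and cluster 4, led by DACH1 and SLC30A8 with several non-coding genes, 15 of 394 (3.81%, 2.15 to 6.20%). Cluster 0, led by AC021723.2 and COL3A1, had 4 of 1206 (0.332%, 0.0904 to 0.847%). The intervals cover counting error only.

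**Figure D4:**
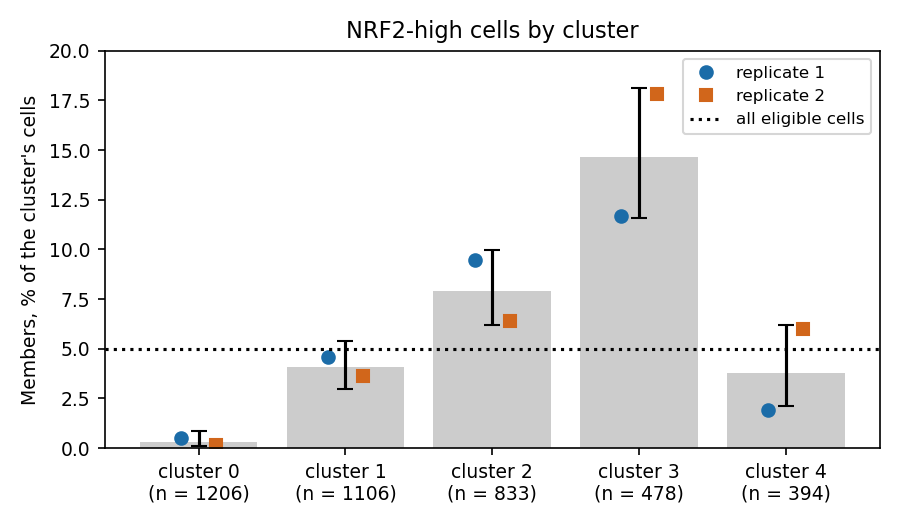
Share of each cluster's cells that were NRF2-high (vertical axis, %), over both libraries (bars, with exact Clopper-Pearson 95% intervals) and per library (circles and squares); the dotted line is the share over all eligible cells (4.98%). Cluster 3 is above the line and cluster 0 below it in both libraries, while cluster 4 is below it in replicate 1 and above it in replicate 2.

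The order of the clusters held in part in each library. Cluster 3 had 11.7% and 17.8% NRF2-high cells and cluster 2 had 9.47% and 6.41%, while cluster 0 had 0.503% and 0.164%. Cluster 4 had 1.90% and 6.01%, a difference between libraries larger than its distance from cluster 1. Among the 15 nearest cells of an NRF2-high cell, 27.5% and 19% were NRF2-high on average, against 1.10% and 1.17% for a low-score cell. Clusters 1 to 4 each held at least 15 NRF2-high cells, and cluster 3 held 35% of them.

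The same genes were compared within clusters 1, 2 and 3, which each held at least 10 NRF2-high cells per library. Of the 40 called NRF2-related genes, 31 were higher in all 6 pairs of cluster and library, 4 in 5 pairs, 3 in 4 pairs and 2 in 3 pairs, with no test. SOD2, UGT1A6, HMOX1, SLC40A1 and BACH1 were those at 4 or fewer. KRT19 was higher in 1 of the 6 pairs, and CCN1, ZYX, KRT8 and KRT18 in none. All of these genes were called on sums that include the same cells, so their direction in most pairs was largely set by that choice. The same count over all genes is not given here. With the cluster as a further block in the edgeR fit, 173 genes were called higher (2.13% of 8138) and 203 lower, and 30 of 56 NRF2-related genes were called higher. Within cluster 3 alone, with 70 NRF2-high and 49 low-score cells, edgeR called 0 of 6722 genes in either direction (188 higher and 218 lower at an unadjusted p below 0.05). There the median log2 fold change of 54 NRF2-related genes was 0.45, and 42 were above 0. The same values over all 6722 genes are not given here, so these 2 are a description only.

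Other stress programmes were read against the 4% of all tested genes called higher and the 4.67% called lower. These shares are for adjusted p-values and do not apply to the unadjusted counts below. At an unadjusted p below 0.05, 1421 of all 14785 genes were higher and 1511 lower in the edgeR fit without the replicate block. Of 17 tested genes of the ATF4 integrated stress response 3 were called higher and 0 lower (10 and 0 at an unadjusted p below 0.05), with a median log2 fold change of 0.31: STC2, a secreted glycoprotein (1.60), PSAT1 of serine synthesis (0.39) and the stress regulator NUPR1 (0.26). Of 16 unfolded protein response genes 3 were called lower and 0 higher by edgeR (4 and 0 at an unadjusted p below 0.05): the endoplasmic reticulum chaperones HSPA5 (-0.30), CALR (-0.27) and PDIA4 (-0.36). Of 15 heat-shock genes 2 were called higher and 1 lower (4 and 2 at an unadjusted p below 0.05): the mitochondrial chaperones HSPD1 and HSPE1 rose by 0.41 and 0.28 and HSPB1, a small actin-associated chaperone, fell (-0.44). Of 20 p53 targets 2 were called, with 3 higher and 0 lower at an unadjusted p below 0.05: TP53I3, a quinone oxidoreductase, and MDM2, the p53 ligase, rose by 0.67 and 0.33. Of 18 hypoxia targets 1 was called, with 3 higher and 2 lower at an unadjusted p below 0.05: the glycolytic enzyme ENO1 rose by 0.27. Of 22 proteasome subunits 2 were called higher, PSMD14 and PSMD1 (0.44 and 0.39), the former higher in replicate 1 and not in replicate 2. At an unadjusted p below 0.05, 8 proteasome subunits were higher and 1 lower. Of the genes named for these programmes, DESeq2 called HSPD1 and TP53I3.

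Among 7 lipid peroxide and ferroptosis genes, SAT1, which breaks down polyamines, and AIFM2, which regenerates ubiquinol, rose by 0.71 and 0.49, while GPX4, the lipid hydroperoxide reductase, was not called (-0.05). Of 7 tested aryl hydrocarbon receptor targets, CYP1B1 rose by 0.35 along with ALDH3A1 and UGT1A6, and CYP1A1 was not called (-0.41). Of 5 tested PXR and CAR targets edgeR and DESeq2 called 0, and 2 were higher at an unadjusted edgeR p below 0.05. Of 15 cholesterol and fatty acid synthesis genes FASN was called (0.41), and of 5 metallothionein and zinc genes MT1X (0.49), which has near-identical relatives. Of 14 immediate early genes, FOSL2 rose by 0.55 and IER3 fell (-0.52).

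**Figure D5:**
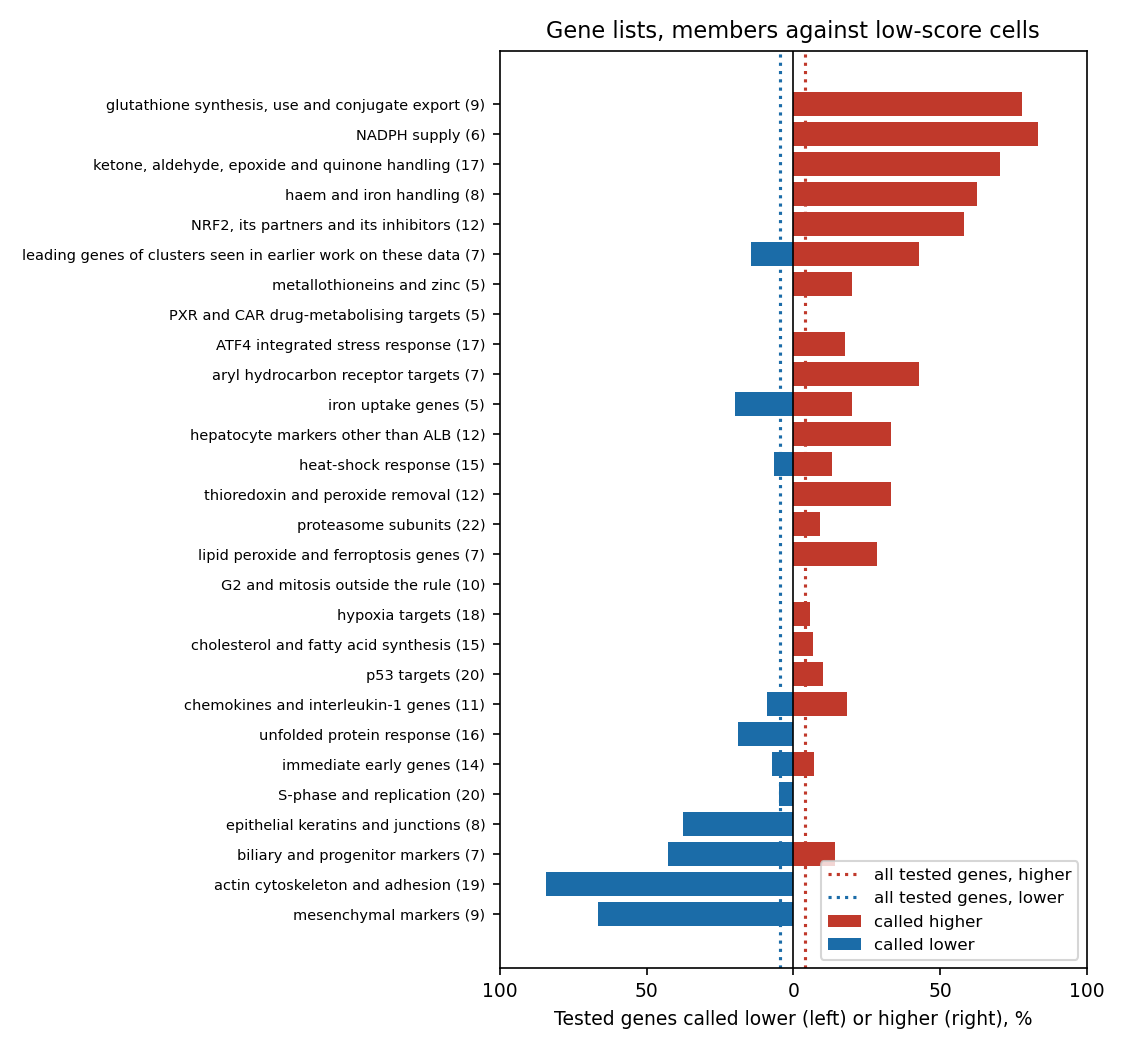
Share of the tested genes of each list called higher (right) or lower (left) in NRF2-high against low-score cells by edgeR (horizontal axis, %), with the number tested in brackets, for lists with at least 5 tested genes, ordered by median log2 fold change. Dotted lines are the shares over all tested genes (4% and 4.67%); glutathione, NADPH, carbonyl, iron and regulator genes stand far to the right and actin and mesenchymal genes far to the left.

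Markers of other cell types were read for the whole list in each case. Of 12 tested hepatocyte markers other than albumin 4 were called higher: FGB, FGA, APOB and SERPINA1. FGA and FGB, fibrinogen chains, had 74.2 and 143 CPM against 68.1 and 66.9 CPM and 85 and 114 CPM against 58.1 and 54.7 CPM, and APOB, the lipoprotein scaffold, 363 and 517 CPM against 301 and 291 CPM. The summed level of 17 markers was 796 and 1262 CPM against 764 and 758 CPM, with APOA2 and CYP3A4 at 0 in the NRF2-high cells of both libraries and APOA2 and TAT at 0 in the low-score cells of both. In replicate 1 a single cell held 43.7% of the FGB UMIs, and with the cluster as a block FGA and FGB were no longer higher (-0.49 and -0.11). Of 10 immune markers 8 had 0 UMIs in the NRF2-high cells of each library, PTPRC among them, and of 8 endothelial markers VWF, CDH5 and LYVE1 had 0 in both. In the low-score cells, 5 and 7 of the immune markers were at 0, as were LYVE1 in replicate 1 and VWF and CDH5 in replicate 2. KDR, the receptor of vascular endothelial growth factor, fell (-1.11).

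The libraries were also compared without a test. Among 10130 genes with a mean of at least 10 CPM, 180 were at least 1.5-fold higher in both libraries (1.78%) and 253 lower (2.5%). These were 50.3% of the 358 genes that were higher by as much in replicate 1 and 33.6% of the 536 in replicate 2; of the lower genes they were 36.9% of 685 and 33.7% of 750. Of the 358 higher genes in replicate 1, 287 were higher to any extent in replicate 2.

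Membership near the limit depended on which UMIs were read. When the score was taken from a random 50% of each cell's UMIs, 81 of 98 and 73 of 102 of the cells were chosen again, and the other UMIs gave the levels. Thinned to 4000 UMIs per cell, 69 and 72 were chosen again. Without the 3 aldo-keto reductases in the score, 53 and 52 were. No doublet caller was run; without the 5% of cells with most UMIs, 500 genes were called higher and 571 lower, and 39 of 64 NRF2-related genes were higher.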

How the data were processed

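The deposited files held whole-number UMI counts per gene and barcode, made with Cell Ranger (7.0.0, per the file headers). The submitters' processing notes name STAR and GRCh38; the handling of intronic and multi-mapping reads is not given in the sources used here. Barcode and feature names were used as deposited, and 12 antibody features held 0 UMIs. GENCODE 29 gave positions by gene ID (34616 of 36601 IDs).

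The NRF2-high cells and all gene lists were chosen with earlier results of these data known. Raw counts were summed per library and group and fitted with edgeR (4.0.16, R 4.3.3; TMM, filterByExpr, quasi-likelihood test, Benjamini-Hochberg adjustment). The library entered as a replicate block, because both sums of a library come from the same suspension. The SE of a log2 fold change was derived from its F statistic and can be too small for scarce genes. The 9 score genes were not tested.

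Genes were named by rule: the 15 largest and 15 smallest log2 fold changes among called genes with a mean of at least 10 CPM and the same direction in both libraries, every called NRF2-related gene with NFE2L2, KEAP1, MAFG and BACH1, up to 3 called genes of each other list, and the 10 genes most correlated with the score. Other genes are named as members of a list or, where too few were called, to complete a count. Clustering used scanpy 1.11.5 (2000 variable genes, 30 principal components, 15 neighbours, Leiden resolution 0.5). No correction for free RNA was made. In simulated counts over 14691 genes, 15 of 50 genes were recovered at 1.5-fold, 46 of 50 at 2-fold and 50 of 50 at both 4-fold and 8-fold. False calls numbered 11. The simulation used 1 fixed dispersion for all genes and changed only genes of at least 10 CPM. It did not include genes whose UMIs sit in single cells, so it does not measure recovery or false calls in the real sums. DESeq2 (1.42.0) served as an alternative. A gene that entered the counts and a promoter sequence are not reported here.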

Additional observations from a re-analysis of the deposited data

How the results depend on the processing

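The counts of genes called higher and lower (592 and 691 by edgeR) were both lower by more than 1.5 times under 7 alternatives. They were 318 and 368 for the top 2.5% of cells, 349 and 456 against all other eligible cells, 175 and 178 after thinning to 4000 UMIs, 343 and 389 with cells chosen on a random 50% of UMIs, 129 and 103 with DESeq2, and 0 and 0 within cluster 3. With the cluster as a further block, an alternative chosen after seeing the data, they were 173 and 203. Without the replicate block they were 627 and 712, and no named gene changed its call. Genes at least 1.5-fold higher and lower in both libraries (180 and 253) numbered 96 and 165 against all other cells and 455 and 498 within cluster 3, while 166 were lower with a score without the aldo-keto reductases. Leaving out a replicate gave 358 to 536 higher and 685 to 750 lower. NRF2-related genes called higher ranged from 28 (DESeq2) to 44 (top 10%), and were 0 within cluster 3. Actin and adhesion genes called lower (16) were 3 without the aldo-keto reductases, 9 after thinning, 9 with DESeq2, 7 with the cluster block and 0 within cluster 3. Mesenchymal markers called lower (6) were 3 without cells with mesenchymal UMIs, 3 with the cluster block and 0 within cluster 3, where 4 were tested. The first of these falls was set by removing cells on genes of the same list. The small clusters hold fewer cells and fewer tested genes; otherwise the cause was not tested.

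Of 114 named genes, fewer of which were tested within clusters, 41 kept their direction but lost their call with DESeq2, 34 after thinning, 27 without the aldo-keto reductases, 31 with the cluster block and 80 within cluster 3. With DESeq2 the adjusted p was 1.00 for HMOX1, BACH1, PSAT1 and CXCL13, 0.84 for PSMD14, 0.53 for HSPA5 and 0.16 for HSPB1. Of 2002 comparisons of named genes with these alternatives, 25 changed direction. Within cluster 3 the log2 fold change was -0.25 for SOD2, -0.37 for BACH1, 0.075 for HSPB1, -0.16 for TP53I3, 0.24 for KRT19, -0.033 for IL1R1, -0.044 for CXCL13 and 0.19 for ACO1. Without the aldo-keto reductases in the score it was 0.010 for HSPA5, 0.23 for MCM7, -0.12 for FGB, -0.38 for FGA, -0.20 for CXCL13, -0.035 for MT1X and -0.079 for FASN. With the cluster as a further block it was 0.014 for HSPA5, -0.11 for FGB, -0.49 for FGA, -0.75 for CXCL13, -0.0051 for SOX6 and -0.0094 for MT1X. Without replicate 1 it was -0.083 for HMOX1, -0.011 for PSMD14 and -0.65 for CXCL13; without replicate 2 it was 1.47 for HMOX1, 0.69 for PSMD14 and 0.97 for CXCL13. For a score over AKR1B10, AKR1C1 and AKR1C2 alone, also chosen after seeing the data, PSAT1 was at -0.12. At 10 to 50 CPM a group of about 100 cells holds few UMIs, and single cells can set the level of such genes.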

Other observations

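ALDH3A2, SLC47A2 and ALDH3A1 lie next to each other on GRCh38 chromosome 17 (19648136 to 19677598, 19678288 to 19718979 and 19737984 to 19748943), and all 3 were called higher in the NRF2-high cells, with log2 fold changes of 0.65, 3.29 and 1.30. The next genes on the other side of ALDH3A2 were not called by edgeR: AC025627.1 had a log2 fold change of 0.16 (adjusted p = 0.641) and SLC47A1, the relative of SLC47A2, also 0.16 (adjusted p = 0.854). On chromosome 10, AKR1C3 lies beside AKR1C2 and AKR1C1 of the score.

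NQO1 was the score gene with the weakest tie to the other 8, with a Spearman correlation of 0.101 and 0.105 across eligible cells, against 0.614 and 0.519 for AKR1C2. Cells without a UMI are tied in such a ranking. NQO1 had a UMI in 13 of 98 and 10 of 102 NRF2-high cells, and in 1.62% and 0.880% of low-score cells. In cells chosen by the other 8 genes it was 5.46 and 7.86 times its level in the low-score cells, from 12 and 11 UMIs. It was also a leading gene of cluster 3, which held 35% of the NRF2-high cells.

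CXCL13, an attractant of B cells, was called higher (log2 fold change 0.51), but it had 84.4 CPM against 43.1 CPM in replicate 1 and 26.3 against 41.4 CPM in replicate 2. In the NRF2-high cells 1 cell per library held 34.0% and 44.4% of its UMIs. SOX6, a transcription factor, had 227 and 193 CPM against 147 and 128 CPM, and SLC30A8, a zinc transporter, 1.20 and 6.83 CPM against 20 and 15.5 CPM. IL1R1, the interleukin-1 receptor, rose by 0.63 and IL18 fell (-1.04).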
